A study of Mus musculus with 16 samples.

Results

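The Xlr genes examined here are 8 genes of 1 cluster on mouse chromosome X, namely Xlr3a, Xlr3b, Xlr4a, Xlr4b, Xlr4c, Xlr5a, Xlr5b and Xlr5c. They were chosen by their signal on these same arrays, which was high in TKO cells in serum and low in 3B3-3l cells in 2i, so the values of those groups are given as a description and carry no test. A probe was taken for a gene when its RefSeq accession belonged to that gene. Of 55681 non-control probes on the array, 10 met this rule and stood for 7 of the 8 genes. No probe carried an accession of Xlr4c, which was not measured here. Xlr3b, Xlr4a and Xlr5c had 2 probes each and the other genes 1 each. All 10 probes passed the filter on low values, which kept 27126 probes.

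Gene expression was measured in mouse embryonic stem cells (mESCs) on 16 one-colour expression arrays, 1 per sample. J1 is the wild-type line, derived from a male embryo, and the other lines were made from it. TKO cells lack Dnmt1, Dnmt3a and Dnmt3b, which encode the maintenance and de novo DNA methyltransferases. 3B3-3l cells lack Dnmt3a and Dnmt3b and express exogenous Dnmt3b and Dnmt3l constitutively. Each line was grown in serum with LIF at 500 U/ml, or for 2 weeks in 2i, a serum-free medium with the MEK inhibitor PD0325901 at 1 µM, the GSK3 inhibitor CHIR99021 at 3 µM and LIF at 1000 U/ml. There were 4 arrays of J1-serum, 3 each of J1-2i and of TKO-2i, and 2 each of TKO-serum, 3B3-3l-serum and 3B3-3l-2i. J1 cells in serum grew on inactivated feeder cells and all other cultures were feeder-free. Nothing states that the replicates were separate cultures, so p-values measure the spread between these samples, which may be technical.

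The Xlr family, named for an X-linked lymphocyte-regulated gene, encodes small nuclear proteins related to the synaptonemal complex protein Sycp3. Its members occur as near-identical copies and are known from germ cells and lymphoid cells, and some of them are imprinted in mouse brain. DNA methylation is known to keep many germline genes silent in embryonic and somatic cells, and the methyltransferases missing from TKO cells place that mark at CpG dinucleotides. Wild-type mESCs grown in serum carry more methylated DNA than wild-type cells kept in 2i. The paper reports no such global loss in the line with a constitutively expressed exogenous methyltransferase. In 2i that line kept about as much methylated DNA as wild-type cells in serum. TKO cells lack the methyltransferases in both media.

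Because the lines differ in their methyltransferases, the CpG dinucleotides before the annotated starts of the genes are shown. The promoter table of RefSeq (GRCm38.p6, the genome of another mouse strain than these cells) held all 8 genes. Each sequence below is the 250 bases before the annotated start, 5′ to 3′ on the strand of the gene, with CpG dinucleotides in capitals. Xlr3a lies on the minus strand (chrX:73097096-73097345), Xlr3b on the plus strand (chrX:73191929-73192178), Xlr4b on the plus strand (chrX:73214083-73214332) and Xlr5b on the plus strand (chrX:73148591-73148840).
Xlr3a: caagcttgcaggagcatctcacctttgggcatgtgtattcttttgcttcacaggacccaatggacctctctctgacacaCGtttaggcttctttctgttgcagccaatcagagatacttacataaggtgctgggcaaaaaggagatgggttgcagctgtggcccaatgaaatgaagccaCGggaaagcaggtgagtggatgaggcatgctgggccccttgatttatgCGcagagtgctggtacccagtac
Xlr3b: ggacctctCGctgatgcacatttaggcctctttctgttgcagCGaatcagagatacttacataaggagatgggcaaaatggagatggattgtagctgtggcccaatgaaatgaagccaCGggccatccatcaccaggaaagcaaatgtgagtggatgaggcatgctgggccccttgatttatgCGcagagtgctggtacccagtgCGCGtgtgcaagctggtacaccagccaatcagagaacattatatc
Xlr4b: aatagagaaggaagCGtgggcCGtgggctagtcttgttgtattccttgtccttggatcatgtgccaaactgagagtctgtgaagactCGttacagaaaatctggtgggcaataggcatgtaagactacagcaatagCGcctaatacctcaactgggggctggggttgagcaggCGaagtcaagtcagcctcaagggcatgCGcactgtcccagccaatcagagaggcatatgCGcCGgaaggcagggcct
Xlr5b: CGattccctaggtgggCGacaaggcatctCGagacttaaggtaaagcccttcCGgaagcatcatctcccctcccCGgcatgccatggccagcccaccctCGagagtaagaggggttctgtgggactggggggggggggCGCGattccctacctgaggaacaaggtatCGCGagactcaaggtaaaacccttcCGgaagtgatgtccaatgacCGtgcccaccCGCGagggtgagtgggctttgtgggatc
The pair Xlr3a and Xlr3b shows how close the copies are, since 187 bases of the 2 stretches aligned with 93.6% identity. Xlr4a and Xlr4b aligned over 243 bases with 98.4% identity, and Xlr5a and Xlr5b over 205 bases with no mismatch. Between the Xlr3, Xlr4 and Xlr5 genes the best local alignments covered between 8 and 39 bases. Xlr3a had 3 CpG dinucleotides, Xlr4c 5, Xlr3b 6, Xlr4a and Xlr4b 8 each, Xlr5a 12 and Xlr5b 14. Xlr5c had 1, and its stretch aligned with those of Xlr5a and Xlr5b over 21 bases alone. The median over 32851 promoters of the same length was 6. The letters TGCGCA, which read the same on both strands, stood before all 5 Xlr3 and Xlr4 genes and before none of the 3 Xlr5 genes, and 6.43% of all promoters held them. CCAAT on either strand stood before 6 of the 8 genes and in 33.85% of all promoters, and CACGTG before none of them and in 6.02% of all. These are matches of letters in copies that share their sequence, not sites, and methylation was not measured on these arrays.

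Values below are log2 of the ratio between the signal of a probe and the 75th percentile of its array, and a group is given as mean ± SD over arrays. A difference of 1 on this scale is a 2-fold change in signal. A probe was called when its adjusted p was at most 0.05 and its fold change at least 2, and adjusted p-values are limma's after Benjamini-Hochberg adjustment over all probes tested. The probe sequences are not in the files used here, so a probe may also bind a near-identical copy, and each value belongs to a probe rather than to 1 copy. Levels of different probes are not set against each other.

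The array signals first checked the labels of the lines. Dnmt1 was at 1.81 in J1-serum and 2.38 in J1-2i, and at -1.68 in TKO-serum and -1.55 in TKO-2i. No TKO or 3B3-3l array had Dnmt3a well above background. Dnmt3b stood at 5.53 in 3B3-3l-serum and 5.82 in 3B3-3l-2i, against 2.96 in J1-serum and 0.63 in J1-2i. Dnmt3l stood at 5.85 in 3B3-3l-serum and 4.38 in 3B3-3l-2i, lower by 1.46 in 2i (adjusted p = 2.7e-05), against 4.64 in J1-serum, 0.74 in J1-2i, 5.54 in TKO-serum and 2.94 in TKO-2i. All 7 markers of embryonic stem cells were well above background on every array of all 6 groups. Of 6 lymphocyte markers, 2 were well above background on every array of each group other than TKO-serum, where this held for 3, and Ptprc was so on no array. Their summed level, in units of the 75th percentile of the array, was 4.32 to 4.80 in J1-serum, 3.84 to 4.05 in J1-2i, 5.03 to 7.03 in TKO-serum, 6.46 to 7.15 in TKO-2i, 9.51 to 10.8 in 3B3-3l-serum and 7.81 to 9.35 in 3B3-3l-2i. It was higher in TKO cells than in J1 cells of the same medium and highest in 3B3-3l cells, and Lck, a kinase of T cells, rose by 1.33 in 3B3-3l-serum against J1-serum. The part of these markers in the Xlr differences was not tested.

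All 10 probes had the same order of lines. TKO cells were highest, then J1-2i, then J1-serum, and 3B3-3l cells were lowest, with 1 overlap, that of Xlr5a between J1-serum and 3B3-3l cells. All 10 probes were well above background on every array of J1-2i, TKO-serum and TKO-2i. In J1-serum this held for 8 probes, since Xlr5a and the probe A_55_P2115980 of Xlr5c were above background on 1 of 4 arrays each. In 3B3-3l-serum it held for 3 probes and in 3B3-3l-2i for 3, and 6 and 7 probes were not well above background on any array of these groups. Both Xlr3b probes and the Xlr4b probe were well above background on all 16 arrays. No member probe was saturated. In bulk RNA, a change in the number of cells that express a gene and a change in RNA per cell cannot be told apart.

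**Figure D1:**
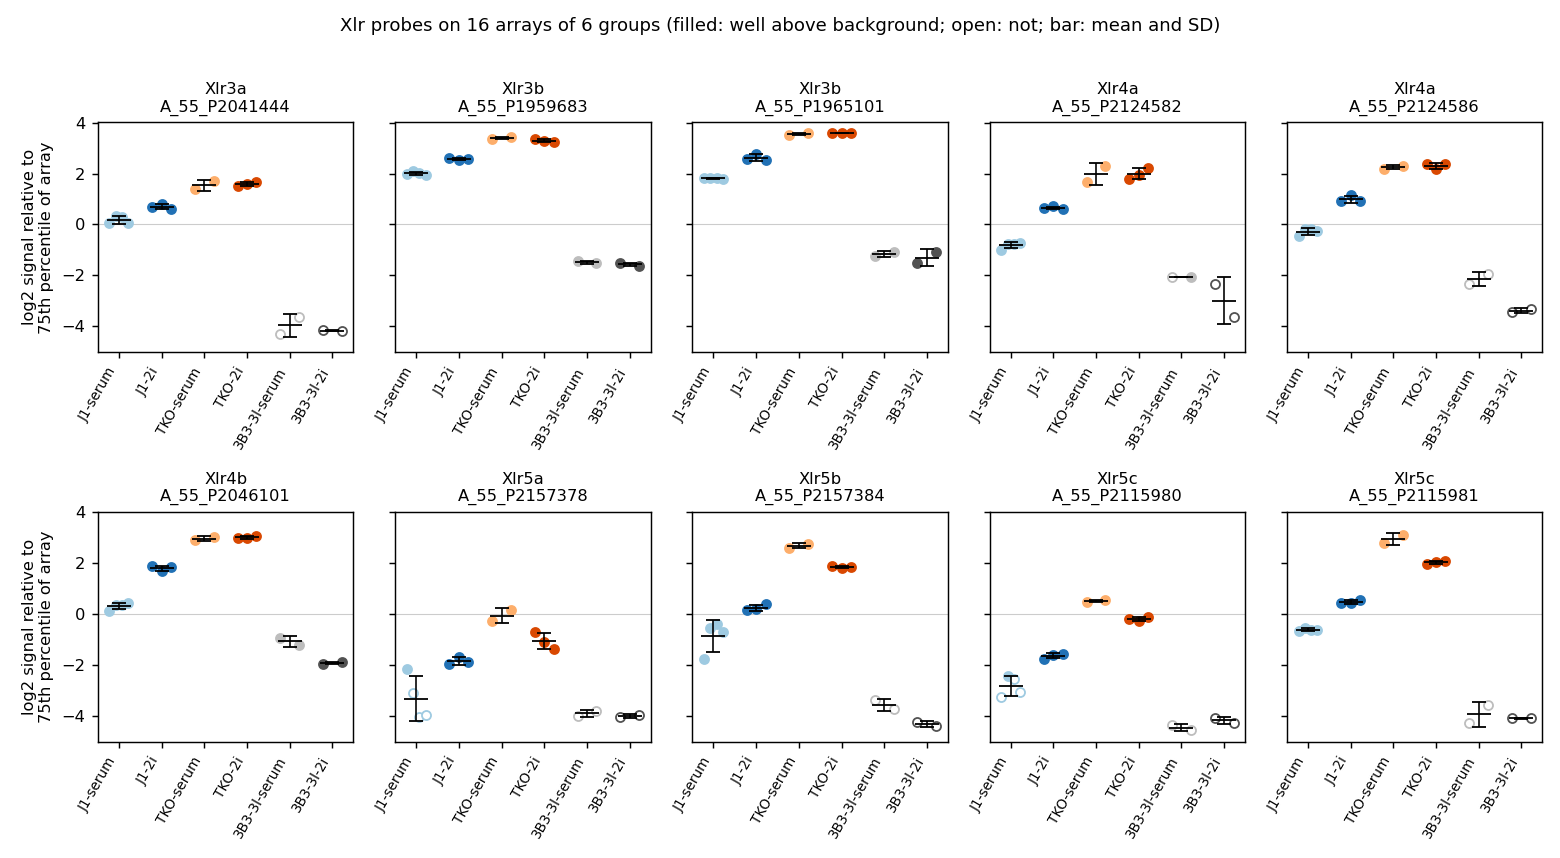
Log2 ratio of signal to the 75th percentile of the array (y axis) for the 10 Xlr probes, 1 panel each, in the 6 groups (x axis). Circles are single arrays, filled where the probe was well above background and open where it was not, and black bars give the mean and SD. In every panel the TKO arrays lie above the J1 arrays, and the J1-2i arrays lie above the J1-serum arrays.

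Xlr3b was measured by 2 probes that were above background in every group. By A_55_P1965101 the J1-serum arrays were at 1.83, 1.82, 1.82 and 1.79, and the J1-2i arrays at 2.57, 2.77 and 2.52. The TKO-serum arrays were at 3.53 and 3.59 and the TKO-2i arrays at 3.60, 3.58 and 3.60. The 3B3-3l-serum arrays were at -1.24 and -1.07 and the 3B3-3l-2i arrays at -1.53 and -1.08. Every array of TKO cells was thus above every J1 array, every J1-2i array was above every J1-serum array, and all 4 arrays of 3B3-3l cells lay below 0, with serum and 2i overlapping. The second probe, A_55_P1959683, had means of 2.01 ± 0.06 in J1-serum, 2.58 ± 0.04 in J1-2i, 3.39 ± 0.04 in TKO-serum, 3.29 ± 0.05 in TKO-2i, -1.48 ± 0.06 in 3B3-3l-serum and -1.57 ± 0.07 in 3B3-3l-2i. Both probes gave the same order of the 3 lines.

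The Xlr3a probe stood at 0.06, 0.34, 0.30 and 0.05 on the J1-serum arrays and at 0.69, 0.81 and 0.61 on the J1-2i arrays. It stood at 1.39 and 1.70 in TKO-serum and at 1.51, 1.60 and 1.66 in TKO-2i. In 3B3-3l cells it was not well above background on any array, at -4.30 and -3.65 in serum and -4.15 and -4.19 in 2i. The groups of the 3 lines did not overlap, and within TKO and within 3B3-3l cells the media overlapped.

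The Xlr4b probe was at 0.13, 0.34, 0.37 and 0.42 in J1-serum and at 1.88, 1.68 and 1.84 in J1-2i. It was at 2.91 and 3.03 in TKO-serum and at 2.97, 2.99 and 3.07 in TKO-2i. It was at -0.93 and -1.24 in 3B3-3l-serum and at -1.96 and -1.89 in 3B3-3l-2i. The 2i arrays of 3B3-3l cells were below its serum arrays, the opposite order to J1, while the TKO media overlapped. The 2 Xlr4a probes had J1-serum means of -0.28 ± 0.13 (A_55_P2124586) and -0.81 ± 0.13 (A_55_P2124582), J1-2i means of 1.00 ± 0.14 and 0.65 ± 0.05, and TKO-2i means of 2.31 ± 0.11 and 2.00 ± 0.22, in the same order of probes. In 3B3-3l cells 1 of the 2 was well above background on 1 array (A_55_P2124582, serum replicate 2) and the other on none.

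Among the Xlr5 genes, the Xlr5b probe was at -1.79, -0.57, -0.40 and -0.69 in J1-serum and at 0.14, 0.21 and 0.38 in J1-2i. It was at 2.61 and 2.75 in TKO-serum and at 1.88, 1.82 and 1.87 in TKO-2i. In 3B3-3l cells it was not well above background, at -3.40 and -3.74 in serum and -4.26 and -4.42 in 2i. No 2 groups overlapped, and TKO-serum was above TKO-2i, unlike for the Xlr3a and Xlr4 probes, where the TKO media overlapped. The brighter Xlr5c probe, A_55_P2115981, followed the same order, with -0.68, -0.54, -0.61 and -0.61 in J1-serum, 0.43, 0.44 and 0.55 in J1-2i, 2.79 and 3.11 in TKO-serum and 1.98, 2.04 and 2.10 in TKO-2i. Its 3B3-3l arrays lay between -4.29 and -3.60, none of them well above background. The other Xlr5c probe had means of -2.85 ± 0.39 in J1-serum, -1.65 ± 0.10 in J1-2i, 0.50 ± 0.04 in TKO-serum and -0.20 ± 0.07 in TKO-2i.

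Xlr5a was the least certain of the genes. Its J1-serum arrays were at -2.17, -3.12, -4.05 and -3.97, of which the first alone was well above background. J1-2i was at -1.97, -1.68 and -1.88, TKO-serum at -0.29 and 0.14, and TKO-2i at -0.72, -1.09 and -1.38. The 3B3-3l arrays lay between -4.06 and -3.83 and overlapped those of J1-serum.

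The first comparison asked how 2i changed the Xlr genes in wild-type cells, and its difference is between groups other than TKO-serum and 3B3-3l-2i, whose levels chose the genes. Those groups still entered the common fit, and so the errors and p-values, and the calls were also 7 in a fit of the 2 groups alone. The J1-serum arrays are also the baseline for the level in TKO-serum, and the J1-2i arrays that for 3B3-3l-2i, so the comparison is not wholly separate from that choice. In J1-2i, 7 of 10 probes rose against J1-serum and none fell, where 9.80% of all probes tested were called higher and 11.2% lower. The 7 were the probes of all measured Xlr4 and Xlr5 genes. Xlr4b rose by 1.49 ± 0.10 (SE) on the log2 scale, which is 2.81-fold, with an adjusted p of 8.3e-08. Xlr4a rose by 1.28 ± 0.12 and 1.46 ± 0.25 with its 2 probes, and the brighter Xlr5c probe 2.12-fold (adjusted p = 2.7e-05). The dimmer Xlr5c probe also rose, from a group that was above background on 1 of 4 arrays. Xlr5b rose 2.15-fold (adjusted p = 0.0032), and this call rested on J1-serum replicate 1, without which the difference was 0.79 and below 2-fold. Xlr5a rose by 1.48 ± 0.36 (adjusted p = 0.0044) and was above background on 1 of 4 arrays in J1-serum. With another background correction (normexp on the median signal) the differences of Xlr5b (0.99) and of the dimmer Xlr5c probe (0.83) were below 2-fold and not called.

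The 3 Xlr3 probes differed in the same direction by less than 2-fold and were not called. Xlr3b was higher by 0.81 ± 0.11 (adjusted p = 3.6e-05) and 0.56 ± 0.07 (adjusted p = 3.1e-05), and Xlr3a by 0.52 ± 0.15 (adjusted p = 0.010). Among probes with signal above background on all 7 J1 arrays, the Xlr3 differences ran from 0.52 to 0.81, those of the Xlr4 genes from 1.28 to 1.49 and those of Xlr5b and the brighter Xlr5c probe were 1.103 and 1.085. The difference between these subfamilies was not tested. The J1-2i arrays all lay above the J1-serum arrays for the 10 probes, as they did for 29.9% of all probes tested. The median difference over the 10 probes was 1.15, and over all probes tested 0.04. Over 675 other probes of chromosome X it was 0.08.

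Markers of fibroblasts, the type of the feeder cells, moved with this comparison. Of 10 markers, 8 were tested and 7 fell in J1-2i, and the summed level of all 10, in units of the 75th percentile of the array, was 69.3 to 83.8 in J1-serum and 46.5 to 57.1 in J1-2i. Lum was not well above background on any array of either group, nor were Col1a1 and Postn in J1-2i. Col1a1 was at least 60-fold lower in J1-2i, while Fn1 differed by 0.65. The same markers also fell from serum to 2i in the other lines, which were feeder-free in both media. In TKO cells 3 of the 8 fell and in 3B3-3l cells 4, with none higher. This leaves out Dcn in TKO cells, which was above background in neither group. The part of the feeder cells in the Xlr difference was not tested.

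The second comparison set TKO-2i against J1-2i, and both groups were feeder-free. It has the J1-2i arrays in common with the first comparison, as it does with 3B3-3l-2i against J1-2i. TKO-2i is also the same line as TKO-serum, whose level chose the genes. Between the media of TKO cells the Xlr3 and Xlr4 probes differed by -0.10 to 0.05 and the Xlr5 probes by -0.99 to -0.71. A rise here therefore partly repeats the choice of the genes, and its p-values are no independent test. In TKO-2i 6 of 10 probes rose and none fell, where 4.29% of all probes tested were called higher and 3.39% lower. These were both Xlr4a probes, Xlr4b, Xlr5b and both Xlr5c probes. Xlr5b rose by 1.61 ± 0.27 (3.06-fold, adjusted p = 0.0011), Xlr5c by 1.57 ± 0.15 (2.96-fold, adjusted p = 1.0e-05) and 1.45 ± 0.18, and Xlr4b by 1.21 ± 0.11 (2.31-fold, adjusted p = 6.6e-06). Xlr4a rose by 1.31 ± 0.12 and 1.34 ± 0.26.

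The Xlr3 probes again stayed below 2-fold, with differences of 0.89 ± 0.16 for Xlr3a (adjusted p = 0.0013) and of 0.97 ± 0.11 and 0.72 ± 0.08 for Xlr3b (adjusted p = 6.1e-05 and 3.2e-05). Without J1-2i replicate 2 the larger of the Xlr3b differences was 1.05 and was called. Xlr5a differed by 0.78 ± 0.39, which did not pass the test (adjusted p = 0.17), although its groups did not overlap. The TKO-2i arrays lay above the J1-2i arrays for all 10 probes and for 27.4% of all probes tested. The median difference was 1.26 over the 10 probes, 0.08 over all probes tested and 0.04 over 674 other probes of chromosome X.

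Marker levels differed between these groups without overlap. The summed lymphocyte markers were at 6.46 to 7.15 in TKO-2i against 3.84 to 4.05 in J1-2i, with 1 of 3 tested markers higher and none lower. The summed fibroblast markers were at 41.0 to 44.8 against 46.5 to 57.1, with 2 of 8 tested markers higher and 1 lower, and Dcn, Postn and Lum were not well above background on any TKO-2i array. The part of these markers in the Xlr difference was not tested.

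The third comparison set 3B3-3l-serum against J1-serum, which were also the controls of the first. 3B3-3l-serum is the same line as 3B3-3l-2i, for whose low level the genes were chosen. Between its media the Xlr3b probes differed by -0.09 and -0.15, and 6 probes in serum and 7 in 2i were above background on no array. A fall here therefore partly repeats the choice of the genes, and its p-values are no independent test. In 3B3-3l-serum 9 of 10 probes fell and none rose, where 8.62% of all probes tested were called lower and 8.99% higher. The 3 probes that were above background on all 16 arrays give the size of the change directly. Xlr3b fell by 3.49 ± 0.08 (11.3-fold, adjusted p = 3.1e-10) and by 2.97 ± 0.12 (7.82-fold, adjusted p = 4.1e-09) with its 2 probes, and Xlr4b fell by 1.39 ± 0.11 (2.63-fold, adjusted p = 9.3e-07).

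Where a probe was not above background in 3B3-3l-serum, the fold change is a bound, taken between the J1-serum mean and the mean, over the 3B3-3l arrays, of the dimmest signal still well above background, or of the probe's own signal where that was higher. Xlr3a was at least 6.06-fold lower (adjusted p = 3.5e-09), Xlr5c at least 3.48-fold by its brighter probe (adjusted p = 1.1e-08), Xlr4a at least 3.46-fold by A_55_P2124586 (adjusted p = 2.5e-07) and Xlr5b at least 2.93-fold (adjusted p = 8.9e-06). The other Xlr4a probe, above background on 1 of 2 arrays in 3B3-3l-serum, fell by 1.25 ± 0.28 (adjusted p = 0.0027), a call lost under normexp (-0.92). The dimmer Xlr5c probe was also called lower, with means of -4.48 ± 0.14 against -2.85 ± 0.39 (adjusted p = 2.0e-05), and it was above background on 1 of 4 arrays in J1-serum and on none in 3B3-3l-serum, so that the size of its change is not given. Xlr5a had means of -3.91 ± 0.12 against -3.33 ± 0.88 and did not pass the test (adjusted p = 0.27). The median over the 10 probes was -2.29, or -1.71 with the 4 bounded probes at their bounds, while the median of all probes was 0.15 and that of 676 other probes of chromosome X 0.18. Relative to the median of all probes, each Xlr difference here was thus larger in size by 0.15.

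Feeder cells differed in this comparison too. The summed fibroblast markers were 58.0 to 67.5 in 3B3-3l-serum against 69.3 to 83.8 in J1-serum, with 4 of 8 tested markers lower and none higher. Dcn, Postn and Lum were not well above background on any 3B3-3l-serum array. The part of these markers in the Xlr difference was not tested.

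The arrays lay on 3 slides, each with a scan of its own. Slide 3 carried all 4 arrays of 3B3-3l cells and J1-serum replicate 1. Slide 2 carried replicate 2 of both J1 groups and TKO-2i replicate 1, and the remaining 8 arrays were on slide 1. With slide added to the fit of group means, the shifts of slide 3 against slide 1 ran from -1.245 to 1.725 over the 10 probes. These shifts rest on J1-serum replicate 1 alone. J1-2i was above J1-serum for all 10 probes within slide 1 and within slide 2. The differences were 0.48 to 1.47 over the 8 probes above background on every such array of slide 1, and 0.45 to 1.47 over the 9 of slide 2. TKO-2i was above J1-2i for all 10 probes within slide 1, by 0.67 to 1.58, and within slide 2, by 0.70 to 1.67. Within slide 3, all 10 probes were lower in 3B3-3l-serum than on the 1 J1-serum array, with differences from -3.46 to -1.21 over the 3 probes above background on all of these arrays. The bounds there were at least 5.53-fold for Xlr3a, 3.31-fold for the brighter Xlr5c probe, 3.04-fold for A_55_P2124586 of Xlr4a and 1.54-fold for Xlr5b, which was at least 2.93-fold lower over all slides. With slide as a block the calls of Xlr5b in J1-2i (0.79) and of A_55_P2124582 of Xlr4a in 3B3-3l-serum (-1.06) were lost, and Xlr5a, above background on no 3B3-3l-serum array, was called lower there, where slide 3 is tied to the others by J1-serum replicate 1 alone.

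**Figure D2:**
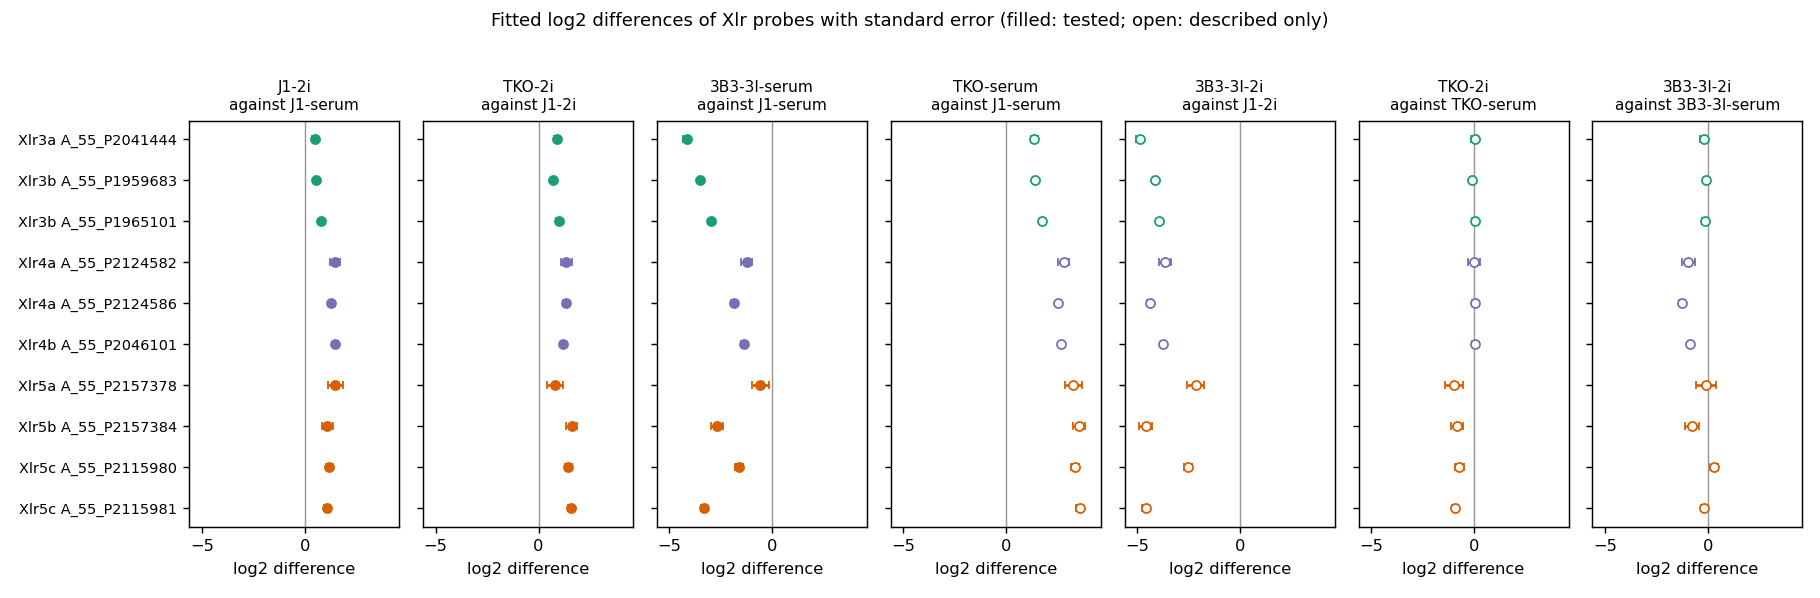
Fitted log2 differences (x axis) with standard errors for the 10 Xlr probes (y axis) in 7 comparisons, 1 panel each. Filled points belong to the 3 comparisons that were tested and open points to the 4 that are described without a test, and green, purple and orange mark Xlr3, Xlr4 and Xlr5 genes. The TKO-2i against TKO-serum panel holds Xlr3 and Xlr4 probes between -0.10 and 0.05 and Xlr5 probes between -0.99 and -0.71.

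The remaining comparisons contain the arrays for whose level the genes were chosen. In TKO-serum all 10 probes were higher than in J1-serum and past the call rule, where 8.04% of all probes were called higher, and nothing is read from that count. The Xlr3 probes were higher by 1.36 to 1.74, the Xlr4 probes by 2.54 to 2.79 and Xlr5b and the brighter Xlr5c probe by 3.54 and 3.56, and the difference between subfamilies was not tested. On the linear scale this ran from 2.56-fold for Xlr3a to 11.8-fold for Xlr5c. Of the 8 fibroblast markers tested, 7 were lower in TKO-serum than in J1-serum and none higher, with a summed level of 30.0 to 33.5 against 69.3 to 83.8. Dcn, Postn and Lum were not well above background on any TKO-serum array, and the part of these markers in the Xlr differences was not tested.

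In 3B3-3l-2i all 10 probes were lower than in J1-2i and past the call rule, where 6.73% of all probes were called lower. Xlr3b was lower by 17.8-fold and 15.2-fold with its 2 probes and Xlr4b by 13.2-fold. For the 7 probes that were not above background in 3B3-3l-2i, the bounds ran from at least 1.39-fold for Xlr5a to at least 9.96-fold for Xlr4a. These groups lay on different slides, and the line and the slide cannot be told apart within any 1 slide. With slide as a block, which J1-serum replicate 1 alone made possible, the mean fitted difference over the 10 probes was -3.73 in place of -3.86. Both means hold the 7 probes without signal above background in 3B3-3l-2i, and the median went from -4.04 to -3.0001 with those 7 at their bounds. The summed fibroblast markers were at 37.9 to 44.5 in 3B3-3l-2i against 46.5 to 57.1 in J1-2i. Of the 8 tested, 3 were higher and 1 lower. The summed lymphocyte markers were at 7.81 to 9.35 against 3.84 to 4.05, with 2 of 3 tested markers higher and none lower. The part of these markers in the Xlr differences was not tested.

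Between the media of TKO cells no probe was past the call rule, where 7.94% of all probes were called lower and 5.79% higher in TKO-2i. Xlr3a, Xlr4a, Xlr4b and Xlr3b lay within -0.10 to 0.05 of TKO-serum, and the 4 Xlr5 probes were lower in TKO-2i by 0.71 to 0.99, with no overlap between the groups, as for 23.7% of all probes tested. In 3B3-3l cells 1 probe, A_55_P2124586 of Xlr4a, was past the call rule, where 6.11% of all probes were called lower in 2i, with neither group well above background. Xlr4b, above background on all 4 of these arrays, was lower in 3B3-3l-2i by 0.84 ± 0.13. The Xlr3b probes differed by -0.09 and -0.15 between the media of 3B3-3l cells, with overlapping groups.

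The genes around the Xlr cluster were taken by their order in the reference annotation, as the 10 protein-coding genes on each side and 5 inside the span that were not members. Of these 25 genes, 22 had a probe and 14 were tested. In J1-2i 1 of the 14 rose and 2 fell, leaving out DXBay18, which passed the call rule without signal above background in either group. In TKO-2i against J1-2i 2 rose and none fell, and in 3B3-3l-serum 1 rose and 1 fell. Of the 14, 1 is 7.14% and 2 are 14.3%, where the shares of all probes called in these comparisons were 3.39% to 11.2%, and nothing particular to the neighbours is read from counts this small. In 3B3-3l-serum, where 9 of the 10 Xlr probes fell, Pnma3, next to Xlr4a at 1 end of the cluster, rose by 1.84. Zfp275, the neighbour of Xlr5c at the other end, differed by 0.12, and Spin2d, which lies between Xlr5b and Xlr3b, by 0.17. The gene that fell there was Bgn, which encodes the matrix proteoglycan biglycan and was at least 4.69-fold lower, being above background on no 3B3-3l-serum array. DXBay18, inside the cluster between Xlr5a and Xlr5b, was at least 3.54-fold higher in TKO-2i than in J1-2i and was not above background in J1-2i, J1-serum or 3B3-3l-serum.

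**Figure D3:**
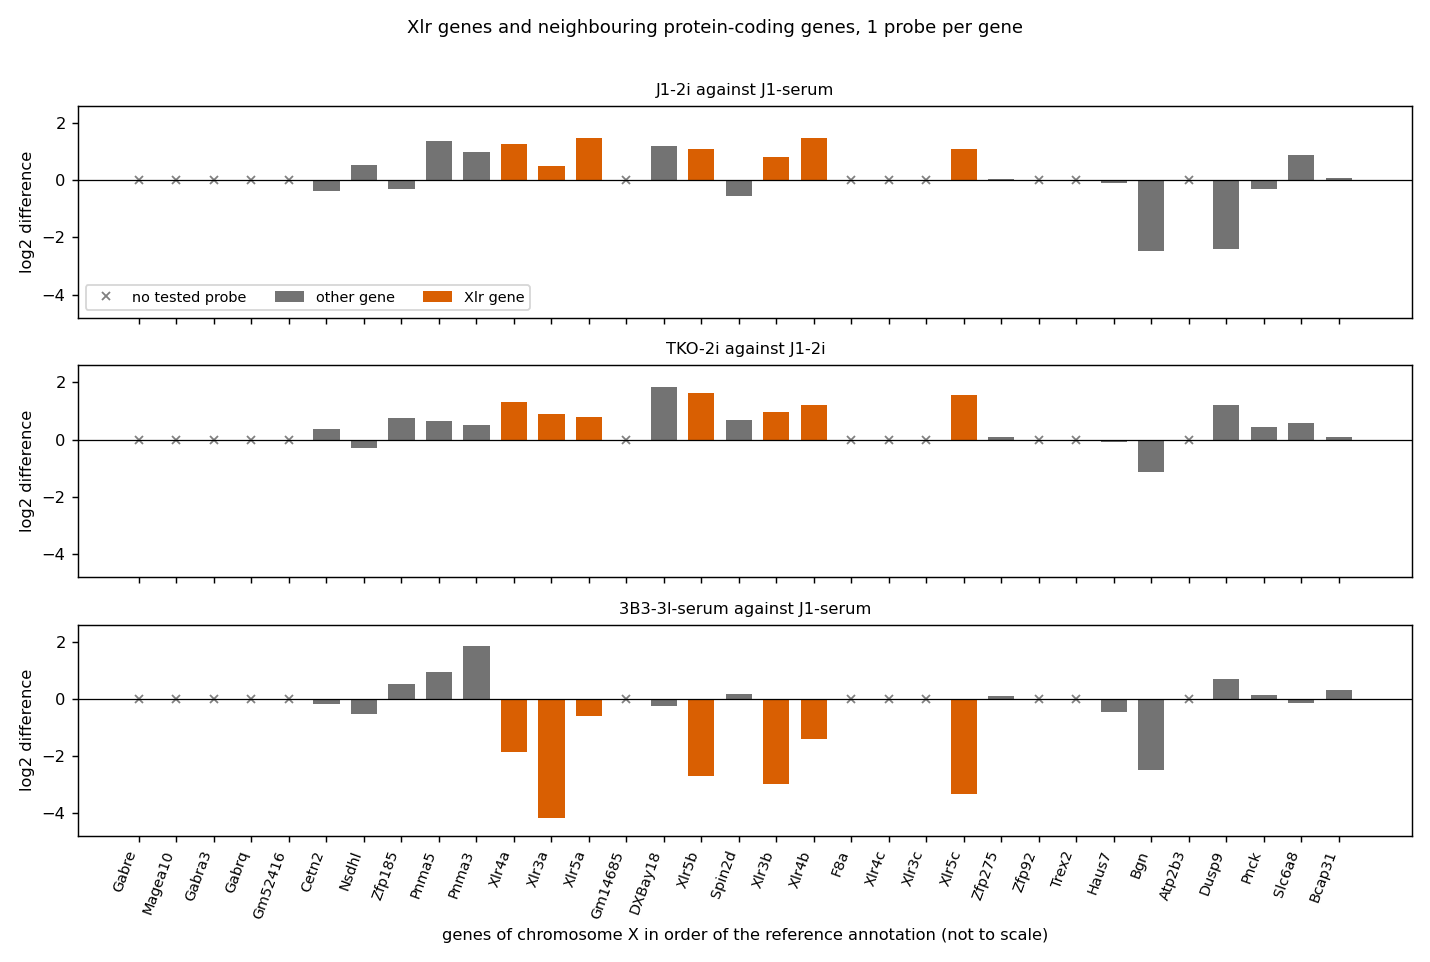
Log2 differences (y axis) of the Xlr genes (orange) and neighbouring protein-coding genes (grey) in the order of the reference annotation (x axis, not to scale) for the 3 tested comparisons, with 1 probe per gene and crosses for genes without a tested probe. In the 3B3-3l-serum panel all Xlr genes measured point down while Spin2d inside the cluster is at 0.17 and Zfp275 beside it at 0.12.

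Relatives of the Xlr genes on the array were looked at next. Of 12 genes listed, 5 had a probe and 4 were tested. Xlr, the gene that named the family, was not well above background in J1-serum, TKO-serum or either group of 3B3-3l cells by A_55_P2009940, and had means of -1.61 ± 0.26 in J1-2i and 0.15 ± 0.19 in TKO-2i. It was at least 3.39-fold higher in J1-2i than in J1-serum (adjusted p = 2.3e-05), and rose in TKO-2i against J1-2i by 1.76 ± 0.32 (adjusted p = 0.0015). Its other probe was above background in TKO-2i alone.

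Slx, the X-linked spermatid gene that is related to Xlr, rose in TKO-2i against J1-2i by 1.39 ± 0.15 (adjusted p = 3.0e-05) and was at -2.66 ± 0.06 in TKO-serum against -2.24 ± 0.32 in J1-serum (adjusted p = 0.056). In 3B3-3l-serum Slx was at least 1.13-fold lower than in J1-serum (adjusted p = 9.5e-07), where it was above background on 2 of 4 arrays, and was so on neither 3B3-3l-serum array. Sly, its relative on chromosome Y, was measured by several probes that disagreed, and the one with the highest mean fell by 1.46 ± 0.33 in 3B3-3l-serum (adjusted p = 0.0031), where it was above background on 1 of 2 arrays. Sycp3, the component of the synaptonemal complex to which these proteins are related, was highest in J1-serum at 2.98 ± 0.03. It fell by 1.97 ± 0.14 in J1-2i (adjusted p = 1.3e-07). It fell by 1.28 ± 0.15 in TKO-2i against J1-2i and fell by 2.39 ± 0.16 in 3B3-3l-serum. Slxl1 was not well above background in any group.

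**Figure D4:**
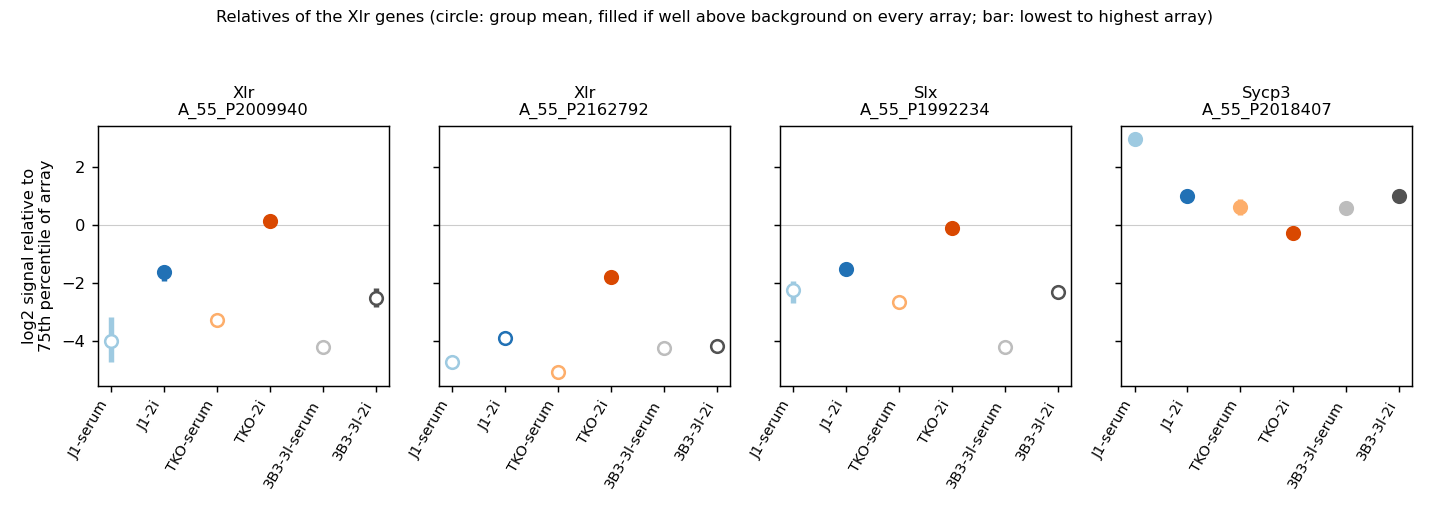
Log2 ratio of signal to the 75th percentile of the array (y axis) in the 6 groups (x axis) for both probes of Xlr and for Slx and Sycp3. Circles are group means, filled where every array was well above background, and bars run from the lowest to the highest array. Xlr and Slx are highest in TKO-2i, and Sycp3 is highest in J1-serum at 2.98.

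Other germline genes of chromosome X were counted from a list of 43, of which 32 had a probe and 19 were tested. They include the Mage and Fthl17 families, which also hold close copies, so that their probes may be shared. In TKO-2i against J1-2i their median was 1.49. There 10 of 19 rose and 1 fell, where 4.29% of all probes tested were called higher and 3.39% lower. These counts leave out genes past the call rule that were above background on no array of either group, which were Mageb4 here and in J1-2i, and Magea4 and Magea8 in 3B3-3l-serum. Magea8 was at least 10.6-fold higher (adjusted p = 2.7e-06) and Magea5 at least 9.78-fold higher (adjusted p = 7.1e-10), both above background on no J1-2i array, and Tex11, a meiotic gene, fell by 1.15. In 3B3-3l-serum 1 rose and 4 fell, with a median of -0.09, and the 4 were Fthl17a, Fthl17e, Fthl17f and Nxf3. In J1-2i 3 rose and 4 fell, with a median of -0.28. The shares of all probes called higher and lower were 8.99% and 8.62% in 3B3-3l-serum and 9.80% and 11.2% in J1-2i.

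Of 16 autosomal germline genes, all tested, 6 rose and 6 fell in J1-2i, 4 rose in TKO-2i against J1-2i with none lower, and 1 fell in 3B3-3l-serum with none higher. Left out likewise were Sycp1 and Asz1 in J1-2i and Tex101 in TKO-2i. Of all probes tested, 9.80% were called higher and 11.2% lower in J1-2i, and 4.29% and 3.39% in TKO-2i against J1-2i. In 3B3-3l-serum these shares were 8.99% and 8.62%, and nothing is read from the 1 gene that fell. Dazl, which encodes an RNA-binding protein of germ cells, rose in J1-2i by 2.19 and in TKO-2i against J1-2i by 1.29. It differed by -0.72 in 3B3-3l-serum. The median of the list in 3B3-3l-serum was -0.22.

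Across the 16 arrays the 10 Xlr probes ran alongside each other, with a lowest Pearson’s r of 0.777 and a median of 0.961 over 45 pairs of probes, as a description of probes that may share targets and that share arrays. The arrays include TKO-serum and 3B3-3l-2i, and genes chosen as high in the one and low in the other correlate by that choice. Of 13647 other genes, the 10 whose profile was most like the mean of the Xlr probes included Rpl39l (r = 0.970), Nhlrc1, Terb2, Ctag2l1, 1700018B24Rik, Wrn, Tmprss13 and Ppp2r2c (r = 0.941). Ctag2l1 was the only one of the 10 on chromosome X. Rpl39l, a ribosomal protein gene known from the testis, was well above background on all 16 arrays, with means of 4.04 in J1-serum, 4.07 in J1-2i, 4.86 in TKO-serum, 4.75 in TKO-2i, 2.40 in 3B3-3l-serum and 2.61 in 3B3-3l-2i.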

How the data were processed

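Total RNA of 16 mESC samples was amplified, labelled with Cy3 and hybridised to 8x60K arrays by the authors, and the images were read with Agilent Feature Extraction (version 11.5.1.1). What the authors deposited per array is a processed signal, an intensity from which that program had subtracted the background and a spatial trend, with arrays not yet scaled to each other. A deposited table of log2 values for 30170 probes held 1 Xlr probe and was used for a single alternative. Groups were taken from the sample titles.

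After removal of spots with a non-uniformity or outlier flag, each array's log2 signal was centred on its 75th percentile over 59305 non-control spots, and spots of the same probe were averaged. That percentile ranged from 1019 to 1797 intensity units over the arrays, and 39.7% to 49.0% of spots exceeded background by the flag of the program. A probe was well above background where this flag was set for 50% or more of its spots, and was tested where that held on every array of 1 group or more. Of the probes tested, 888 lacked a value on at least 1 array. The number of arrays limits the precision. Gene names came from RefSeq accessions (annotation of GRCm38.p6), which matched 28026 probes to 21154 genes. The array design used mm9, so only the order of genes is given and no probe position.

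All 16 arrays were fitted as 6 group means with limma (version 3.58.1, R 4.3.3) and eBayes, two-sided, and the code was tested on simulated data. The members and the gene lists were chosen with earlier results of these data known. The genes named were all probes of the members and of 12 relatives, the neighbours, and the highest and lowest of each list, with 1 probe per gene, that with the highest mean. Alternatives were other normalizations, background corrections, filters, a slide block, a replicate block, the 2 groups alone and leaving out each array. Some genes that these rules name are not reported here.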

Additional observations from a re-analysis of the deposited data

Results flagged for a closer look

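On 1 of 10 probes the J1-serum arrays held a value far from the others. The Xlr4a probe A_55_P2124582 was at -1.0015 in J1-serum replicate 1, and its nearest neighbour was -0.76 and the highest -0.72, so that the gap was 0.879 of the range, above Dixon's critical value for 4 arrays. Chance gives such a value in about 1 of 20 groups, and 10 groups were examined. That array was the only J1 array on slide 3.

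Among probes well above background on every array of the 2 lines compared, there were 4 cases in which the arrays of 1 line all moved one way from serum to 2i and those of another line the opposite way, and this difference between lines was not tested. Xlr3b by A_55_P1959683 was higher in 2i by 0.56 in J1 and differed by -0.10 in TKO cells, a gap of 0.67. Xlr5b was 2.15-fold higher in J1 and differed by -0.83 on the log2 scale in TKO cells, a gap of 1.93. Xlr5c by A_55_P2115981 was higher by 1.09 in J1 and differed by -0.91 in TKO cells, a gap of 2.00. Xlr4b was higher by 1.49 in J1 and differed by -0.84 in 3B3-3l cells, a gap of 2.33. Without that condition on background there were 10 such cases. The other 6 were Xlr5a and Xlr5c by A_55_P2115980 between J1 and TKO cells, both Xlr4a probes and Xlr5b between J1 and 3B3-3l cells, and Xlr5c by A_55_P2115980 between TKO and 3B3-3l cells. The TKO-serum and 3B3-3l-2i arrays in these responses are those for whose level the genes were chosen.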

How the results depend on the processing

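Of 412 values of single Xlr probes under the alternatives, 403 kept their direction and their side of the threshold, 6 lost and 2 gained a call, and 1 reversed. Requiring signal above background on all 16 arrays left 3 Xlr probes, and the counts went from 7 to 1 in J1-2i, from 6 to 1 in TKO-2i against J1-2i and from 9 to 3 in 3B3-3l-serum, as fewer probes were tested. Normexp on the median signal, chosen after seeing the data, reversed Xlr5a in 3B3-3l-serum against J1-serum (0.0852) and took the mean difference over the 10 probes from 2.62 to 2.38 in TKO-serum against J1-serum and from -3.86 to -3.04 in 3B3-3l-2i against J1-2i, where 7 of the 10 probes were not above background in 3B3-3l-2i. The cause was not tested. The latter was -4.00 with quantile normalization and -3.73 with slide as a block, and 3B3-3l-2i against 3B3-3l-serum went from -0.42 to -0.29 with median scaling.

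Leaving out 1 array at a time gave 6 to 7 calls in J1-2i, 6 to 7 in TKO-2i against J1-2i and 9 to 9 in 3B3-3l-serum. Mean differences ran from 2.51 to 2.73 in TKO-serum against J1-serum and from -0.45 to -0.22 in TKO-2i against TKO-serum, whose main value was -0.34. That value was -0.22 without TKO-serum replicate 2. They ran from -3.91 to -3.81 in 3B3-3l-2i against J1-2i and from -0.48 to -0.36 in 3B3-3l-2i against 3B3-3l-serum. The samples share only a replicate number, with correlations of same-numbered deviations from -0.272 to 0.293. With the replicate number as a block the calls remained 7, 6 and 9 in number. Normexp on the mean signal, and a restriction to probes of 1 member, were not run, for want of a mean signal column and of probe sequences. Signal over background limits Xlr5a and all but 3 probes in 3B3-3l cells.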

Other observations

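1700013H16Rik, which the annotation also lists under a synonym of the Xlr family and which was chosen after its values were seen, had means of -0.88 ± 0.39 in J1-serum, -1.37 ± 0.59 in J1-2i, 0.98 ± 0.12 in TKO-serum and 2.24 ± 0.06 in TKO-2i. It was not well above background on any array of 3B3-3l cells. Against J1 of the same medium it was higher by 1.86 ± 0.33 (SE) in TKO-serum and by 3.61 ± 0.31 in TKO-2i. Between the J1 media it differed by -0.49 ± 0.29, where 7 of the 10 Xlr probes rose. No p is given, since the gene was chosen with these values known.

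3830403N18Rik, which the annotation also lists as Xlrl, was likewise chosen after its values were seen, and no p is given. It differed from J1-serum by -0.63 ± 0.35 (SE) in TKO-serum, by -0.38 ± 0.35 in 3B3-3l-serum and by 0.30 ± 0.30 in J1-2i. It was higher by 1.16 ± 0.33 in TKO-2i than in J1-2i.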
